A study of Saccharomyces cerevisiae with 3 samples.

Results

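The 10 genes described here control or carry out the making of inositol and of the major phospholipids in Saccharomyces cerevisiae. They were taken by name, as the probe sets whose annotated symbol is INO1, INO2, INO4, OPI1, CHO1, PSD1, CHO2, OPI3, ITR1 or PIS1, and all 10 were found among 5656 genes with a probe set of their own. Each was read by a single probe set, so no second probe set of the gene was at hand for comparison. The cells were strain S288c, the laboratory strain of baker's yeast behind the reference genome, and their RNA was collected after 5 h in one of 3 conditions. One culture had received tomatidine at 15 µM, one tomatidine at 7.5 µM, and the control only the carrier solvent DMF (dimethylformamide), which the treated cultures contained as well. Tomatidine is the steroidal alkaloid that remains when the sugars of the tomato compound tomatine are removed. The growth medium, and whether it contained inositol, is not given in the sources used here.

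Phospholipids of yeast are built from phosphatidic acid through CDP-diacylglycerol, which is joined to serine by Cho1 or to inositol by Pis1. Phosphatidylserine is decarboxylated to phosphatidylethanolamine, and this is methylated to phosphatidylcholine. The transcription factors Ino2 and Ino4 bind together to an element called UASINO before many of these genes and activate them. The repressor Opi1 is held at the endoplasmic reticulum by phosphatidic acid, and when inositol is supplied phosphatidic acid is used up, Opi1 moves to the nucleus and the genes are turned down. INO1 is the best known target of this circuit.

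With 1 array for each condition no difference could be tested, and the values below describe these 3 arrays alone. The values are array signals divided by each array's median and brought to a common level. The median deposited signal was 30.4 at 15 µM, 30.1 at 7.5 µM and 28.5 in the control. Signals at or under 18.2, the 40th percentile of all scaled signals, were treated as a floor under which no level was read. Signals under the floor were raised to it before ratios were taken. A gene was called where one array was then at least 2-fold above another, with the brighter signal above the floor. After this scaling the spike controls of the solvent array exceeded those at 15 µM by 1.78-fold and those at 7.5 µM by 1.61-fold, and what this difference contributes to the ratios was not tested. With the spikes as the reference, the median log2 ratio of all genes was 0.75 at 15 µM and 0.61 at 7.5 µM over control, so the directions below are relative to the median of each array.

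At the 2-fold rule none of the inositol and phospholipid synthesis genes was called in any comparison. Of the 10 genes 8 were above the floor on all 3 arrays, INO1 on the control array only and INO2 on none. At 15 µM over control, 0 of 9 comparable genes were called, where 2.77% of 4660 genes were called higher and 1.16% lower. At 7.5 µM over control, 0 of 9 were called, where 2.02% of 4653 genes were higher and 0.623% lower. Between the doses, 0 of 8 were called, where 0.736% of 4618 genes were higher at 15 µM and 0.303% lower. With so few genes, a count of 0 is close to these background shares and is no result about the pathway. The same count of 0 was found at 1.5-fold, which 8.37% of all genes reached upwards and 7% downwards at 15 µM, 8.75% and 5.29% at 7.5 µM, and 4.16% and 3.16% between the doses. INO1 is among the 9 genes at both doses, but its control signal was only 1.33-fold above the floor. It could therefore not be called lower at 2-fold or at 1.5-fold, whatever its tomatidine signals. Each of the 8 genes above the floor had its 3 signals within 1.5-fold of each other. With the spikes as the reference CHO1, CHO2, OPI3 and ITR1 were called higher at 15 µM and CHO1 and CHO2 at 7.5 µM. Of all genes, 27.2% and 17.2% were called higher there. Whether these calls reflect the amount of mRNA was not tested.

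**Figure D1:**
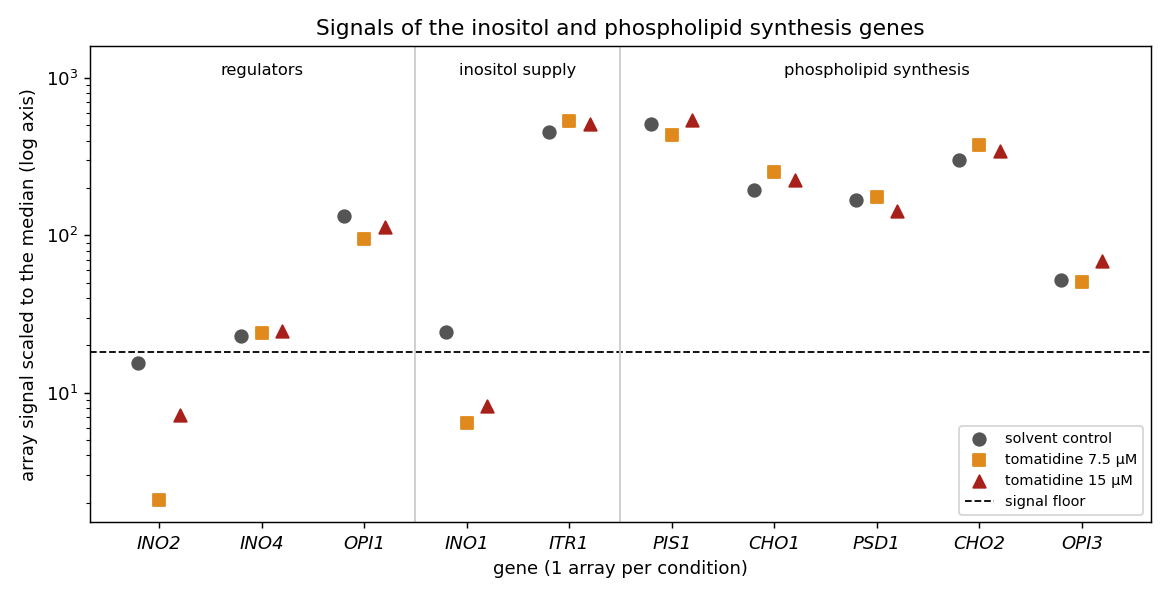
Scaled array signals of the 10 genes on a log axis, with 1 point for each condition and the signal floor of 18.2 as a dashed line. The 3 signals of 8 genes lie close together above the floor, INO1 is above it on the control array only, and INO2 lies under it on all 3 arrays.

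Of the regulators, INO2, a subunit of the activator, had scaled signals of 7.20 at 15 µM, 2.07 at 7.5 µM and 15.4 in the control. All 3 were under the floor, so no ratio was read for it. INO4, the partner subunit, had signals of 24.5, 24.1 and 22.8 in the same order, just above the floor. Its log2 ratios were 0.11 at 15 µM and 0.08 at 7.5 µM over control, and it was the only one of the 8 genes whose signal at 7.5 µM lay between those of the control and 15 µM. That order rests on a log2 ratio of 0.03 between the doses, which was -0.0061 with lowess centring. OPI1, the repressor, had signals of 113, 94.3 and 133. It was highest in the control and lowest at 7.5 µM, the only gene of the 8 with its highest signal in the control. Its log2 ratio was -0.50 at 7.5 µM, and 20.2% of all genes compared differed at least as much in either direction. At 15 µM it was -0.24, and both ratios were above 0 with the arrays scaled on the spikes. Relative to the median of all genes under that scaling, OPI1 was at -0.16 at 15 µM and -0.42 at 7.5 µM.

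Inositol enters the pathway by synthesis or by uptake. INO1, inositol-3-phosphate synthase, had signals of 8.18 at 15 µM, 6.41 at 7.5 µM and 24.3 in the control. The control signal was above the floor and both tomatidine signals were under it, which makes INO1 at least 1.33-fold lower at either dose. Read without a floor, the signals differed by 2.97-fold and 3.78-fold. With the floor at the 20th percentile (5.16), INO1 was 2.97-fold and 3.78-fold lower and INO2 was 2.14-fold lower at 15 µM and at least 2.99-fold lower at 7.5 µM, and both genes were called at both doses. Under that setting 2.63% of 5432 genes were at least 2-fold lower at 15 µM and 2.37% of 5395 at 7.5 µM. Without a floor, on signals with a pseudocount of 0.584 added, both genes were also called lower at both doses, as were 3.7% of all genes at 15 µM and 4.28% at 7.5 µM, and INO2 was called higher at 15 µM than at 7.5 µM, as were 4.56%. Of 531 genes with a control signal within 1.2-fold of that of INO1, 8 (1.51%) were at least 2-fold below the control at both doses when read without a floor. For 371 genes around the dimmer control signal of INO2 the number was 18 (4.85%). Both doses were set against the same control array, so a control signal that is high for any reason lowers both ratios together. With the spikes as the reference, the control signal of INO1 was itself under the floor and no ratio could be read.

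ITR1, the major inositol transporter of the plasma membrane, had signals of 508, 533 and 452 at 15 µM, 7.5 µM and in the control. The control was the lowest of the 3, with log2 ratios of 0.17 and 0.24, and 51.0% of all genes differed from the control at 7.5 µM at least as much. At 15 µM 66.7% of all genes differed at least as much. ITR1 is a target of the same circuit as INO1, and under the median scaling their ratios to control had opposite signs. The ratio of INO1 is a bound from a control signal near the floor, and with spike scaling none could be read. The difference between these genes was not tested.

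PIS1, phosphatidylinositol synthase, joins inositol to CDP-diacylglycerol. Its signals were 543 at 15 µM, 435 at 7.5 µM and 514 in the control. It was lowest at 7.5 µM, with log2 ratios of 0.08 at 15 µM and -0.24 at 7.5 µM over control. Between the doses its log2 ratio was 0.32.

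The other 4 genes lead from CDP-diacylglycerol to phosphatidylcholine. CHO1, phosphatidylserine synthase, had signals of 223, 253 and 196 at 15 µM, 7.5 µM and in the control. CHO2, the methyltransferase that begins the methylation of phosphatidylethanolamine, had 345, 377 and 301. Both were lowest in the control and highest at 7.5 µM. Their log2 ratios were 0.37 for CHO1 and 0.32 for CHO2 at 7.5 µM, and 0.19 and 0.20 at 15 µM. PSD1, the mitochondrial phosphatidylserine decarboxylase, had signals of 143, 174 and 168. It was lowest at 15 µM, with log2 ratios of -0.23 at 15 µM and 0.05 at 7.5 µM. OPI3, which carries out the later methylation steps, had signals of 68.5, 50.2 and 52.2. Here the 15 µM array stood above the other arrays, which lay close together. The log2 ratio of OPI3 was 0.39 at 15 µM over control, the largest upward ratio of the group, and -0.06 at 7.5 µM. Between the doses it was 0.45, and 15.2% of all genes compared differed at least as much.

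**Figure D2:**
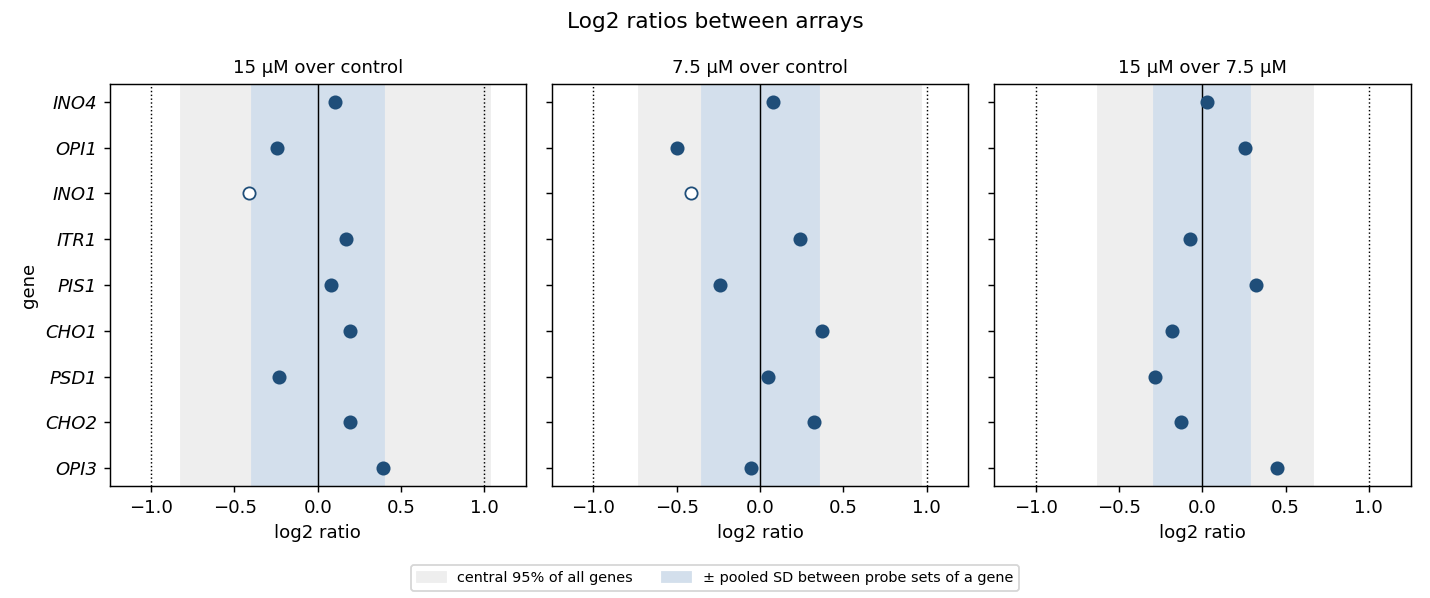
Log2 ratios of the 9 genes with a signal above the floor in 3 comparisons, with the open circle of INO1 marking a bound. The light band holds the central 95% of all genes, the darker band is ± 1 pooled SD between probe sets of one gene, and dotted lines mark 2-fold; all points lie inside the light band.

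In place of replicates, the agreement of probe sets within a gene gives some scale. The log2 ratios of different probe sets for one gene had a pooled SD of 0.40 at 15 µM over control, 0.35 at 7.5 µM over control and 0.29 between the doses, over 210 genes. This SD reflects the probes and holds no variation between cultures. At 15 µM none of the 8 genes above the floor on all arrays lay beyond this SD. At 7.5 µM OPI1 and CHO1 did, and between the doses OPI3 and PIS1 did.

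Over the 8 genes the log2 ratio at 15 µM over control had a median of 0.14, ranging from -0.24 to 0.39, with 6 above 0. At 7.5 µM the median was 0.06, ranging from -0.50 to 0.37, with 5 above 0. Over all genes compared, the medians were -0.03 and -0.04, and the central 95% ran from -0.82 to 1.04 and from -0.73 to 0.97. Above 0 were 2187 of 4660 genes at 15 µM, 2115 of 4653 at 7.5 µM and 2273 of 4618 between the doses. Between the doses the median of the 8 genes was -0.02, with 4 above 0. With spike scaling it was 0.13, where that of all genes was 0.14. With INO1 and INO2 read as well the median under the array median scaling was 0.14, both with the 20th percentile floor and without a floor. In this order of the arrays, 4 of the 8 genes were highest at 7.5 µM (CHO1, CHO2, ITR1 and PSD1), 3 at 15 µM (INO4, OPI3 and PIS1) and 1, OPI1, in the control. With spike scaling CHO2 and ITR1 were higher at 15 µM than at 7.5 µM, with log2 ratios of 0.02 and 0.08. Relative to the median of all genes under that scaling these ratios were -0.12 and -0.06.

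**Figure D3:**
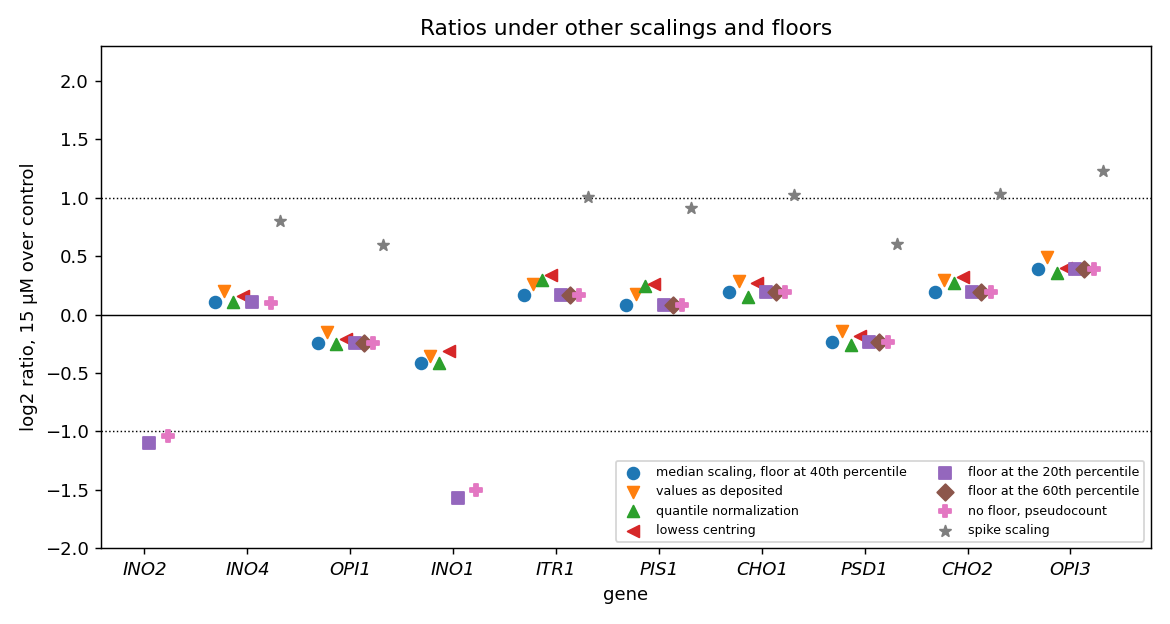
Log2 ratios at 15 µM over control for each gene under 8 settings of scaling and floor; dotted lines mark 2-fold. Spike scaling lifts all 8 genes that it could read, INO1 and INO2 pass 2-fold downwards only with the low floor or with none, and the other points of each gene lie close together.

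The gene with the largest absolute ratio at 15 µM was INO1, with its bound of -0.41 at both doses. The genes whose pair of log2 ratios to control lay nearest to that bound, among 3985 named genes above the floor on all 3 arrays, were SPT5, STM1 and VMA3, at Euclidean distances of 0.0069, 0.0089 and 0.011 log2 units over 2 ratios. In all, 119 genes lay within 0.1 of it, so likeness to this bound is common. The pair of INO1 is the floor over its control signal at both doses, so its true pattern may lie elsewhere. Read without a floor, INO1 was 2.97-fold lower at 15 µM and 3.78-fold lower at 7.5 µM. OPI3, added after its values were seen, had SDH7, ECM15 and YSC84 as its nearest genes, and 55 lay within 0.1.

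The wider phospholipid pathway was read from 53 further genes in 7 lists. Of these 51 were compared at 15 µM, and GIT1, the transporter of glycerophosphoinositol, and PGS1, which begins cardiolipin synthesis, were under the floor on all arrays. At 15 µM 2 of 51 were at least 2-fold higher and 0 lower, against the background of 2.77% and 1.16%. At 7.5 µM 1 of 49 was at least 2-fold higher and 0 lower, against 2.02% and 0.623%. Between the doses none of 51 was called. The median log2 ratios of the 51 and 49 genes were 0.01 at 15 µM and 0.13 at 7.5 µM.

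Both genes called at 15 µM act in phospholipid breakdown. PLB1, a phospholipase B that removes the fatty acids of phospholipids, had signals of 157 at 15 µM, 87.7 at 7.5 µM and 56.5 in the control, which is 2.78-fold higher at 15 µM. GDE1, which cleaves the glycerophosphocholine left by such removal, had signals of 104, 83.1 and 48.7 and was 2.14-fold higher. Both genes increased in signal from control to 7.5 µM to 15 µM, and their log2 ratios at 7.5 µM were 0.63 and 0.77. PLB2, a second phospholipase B gene, went another way, with signals of 110, 196 and 158 and a log2 ratio of -0.52 at 15 µM. Of the 7 turnover genes compared, 4 were above 0 at 15 µM (median 0.14) and 7 at 7.5 µM (median 0.31). Of all genes compared, 2187 of 4660 were above 0 at 15 µM and 2115 of 4653 at 7.5 µM. The gene called at 7.5 µM was INP51, a phosphatase of phosphatidylinositol bisphosphate, with signals of 38.3, 42.5 and 19.4. Its control signal lay just above the floor, and its log2 ratios were 1.13 at 7.5 µM and 0.98 at 15 µM. With the floor at the 60th percentile all 3 signals of INP51 were under it and no ratio could be read.

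**Figure D4:**
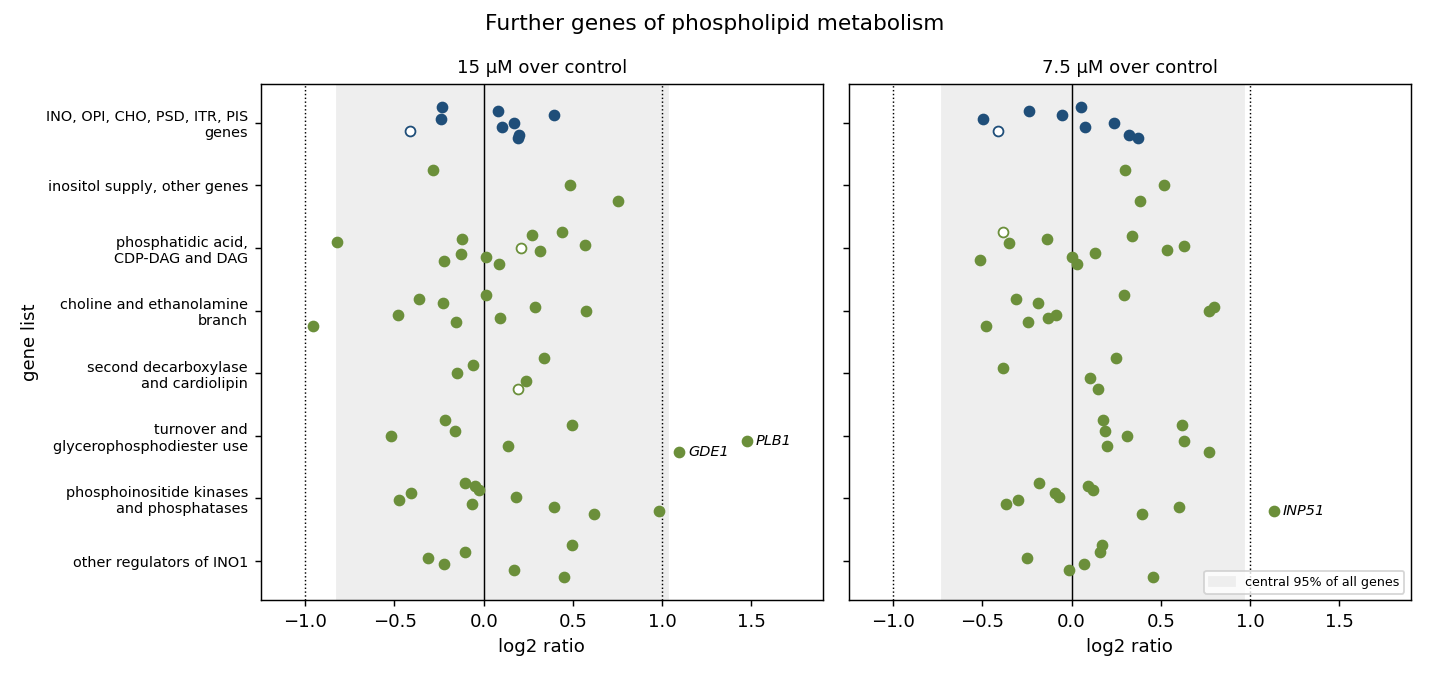
Log2 ratios at 15 µM and 7.5 µM over control for the inositol and phospholipid synthesis genes (blue) and 7 further lists (green), 1 point per gene, with bounds as open circles and the central 95% of all genes as a grey band. PLB1 and GDE1 pass 2-fold (dotted line) at 15 µM and INP51 at 7.5 µM.

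Other inositol genes included INM1, an inositol monophosphatase that completes synthesis after Ino1, with signals of 81.3 at 15 µM, 63.1 at 7.5 µM and 48.3 in the control and a log2 ratio of 0.75 at 15 µM. ITR2, the minor inositol transporter, had 100.3, 150.3 and 122, and its log2 ratio of -0.28 at 15 µM was the lowest of these 3 genes, whose median was 0.49. In the list of phosphatidic acid, CDP-diacylglycerol and diacylglycerol genes the median was 0.08 over 11 genes. PAH1, the phosphatidate phosphatase that draws phosphatidic acid into storage lipid, had the highest ratio (0.57), and SCT1, an acyltransferase at the start of phosphatidic acid synthesis, the lowest (-0.82). SCT1 signals were 88.3, 122 and 156.

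In the branch that uses choline and ethanolamine from outside the cell, 4 of 9 genes lay above 0 at 15 µM, with a median of -0.16. Of all genes compared, 2187 of 4660 lay above 0 there. CKI1, choline kinase, had signals of 29.9, 41.5 and 57.9 and the lowest log2 ratio of all 51 genes, -0.95. EPT1, ethanolaminephosphotransferase, had the highest of the branch at 15 µM, 0.58. At 7.5 µM its log2 ratio was 0.77, and HNM1 stood at 0.80. HNM1, the choline transporter, named after its values were seen, had signals of 151, 215 and 124 and, like CHO1 and CHO2, was highest at 7.5 µM under the median scaling. Among 5 genes of cardiolipin and of the second decarboxylase the median was 0.19, from -0.15 for GEP4, a phosphatase of cardiolipin synthesis, to 0.34 for TAZ1, which remodels cardiolipin. The phosphoinositide kinases and phosphatases had a median of -0.04 over 10 genes, with LSB6, a phosphatidylinositol kinase, lowest at -0.47. Of 6 other regulators of INO1, UME6, a DNA-binding repressor subunit, was highest (0.50) and SCS2, the membrane protein that helps to hold Opi1 at the endoplasmic reticulum, lowest (-0.31), with a median of 0.03.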

How the data were processed

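The authors deposited 1 intensity per probe set and array, a linear summary signal. How this signal was summarised, scaled or called as detected is not given in the sources used here. Per array, the deposited intensity values had a mean of 100.1 on each array after the lowest and highest 2% were left out. A global scaling was therefore already in them, which hides any change in total mRNA. The spikes used were among the BioB, BioC, BioDn and CreX controls of the array. Whether they track total mRNA was not tested. Of 9335 probe sets 60 were controls, and 6504 were annotated to 1 gene, all matched by gene identifier to the R64 gene table, which was used for names and neighbours only. Where a gene had several probe sets the brightest was used. The median of the non-control probe sets set the scale of each array (factors 0.974, 0.986 and 1.04 in the order 15 µM, 7.5 µM, control), and signals were floored at 18.2 and put on the log2 scale. No ratio was taken where both arrays were at or under the floor. The rule of size (2-fold) takes the place of a test and was tested on simulated data. How often it is wrong on these arrays, including for genes near the floor, was not tested, since each condition had 1 array. The number of arrays limits the precision. The genes and lists were chosen with earlier results of these data known. All 10 genes were named; of each further list, the genes called in any comparison and those with the highest and lowest ratio at 15 µM. Alternatives were scaling on 8 spike probe sets, quantile normalisation, lowess centring (span 0.3), no rescaling, a 20th or a 60th percentile floor, a pseudocount of 0.584 without a floor, the mean of all probe sets, and 1.5-fold and 3-fold rules. The tools were Python 3.11.15 with pandas 2.3.3, numpy 2.4.6, matplotlib 3.10.9 and statsmodels 0.14.6.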

Additional observations from a re-analysis of the deposited data

Results flagged for a closer look

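For 3 genes the doses lay on opposite sides of the control array. PSD1 had a log2 ratio of -0.23 at 15 µM and 0.0507 at 7.5 µM, OPI3 of 0.39 and -0.0554, and PIS1 of 0.0798 and -0.24. With 1 array per dose and a shared control, the difference between the doses was not tested. With the spikes as the reference all 6 ratios were above 0, and with the values as deposited OPI3 at 7.5 µM was at 0.02. Relative to the median of all genes under spike scaling, PSD1 was at -0.15 at 15 µM and 0.13 at 7.5 µM. In the same order PIS1 was at 0.16 and -0.16, and OPI3 at 0.48 and 0.02.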

How the results depend on the processing

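No paired analysis was possible because each condition had 1 array. The count of 0 called genes among the 10 held at each comparison with quantile normalisation, lowess centring, no rescaling, the 60th percentile floor, averaged probe sets and the 1.5-fold and 3-fold rules. Of these, the 60th percentile floor, averaged probe sets and the 3-fold rule could add no call to the 2-fold count. Each of the 10 genes had a single probe set, and the higher floor and the 3-fold rule are stricter. With the floor at the 20th percentile INO1 and INO2 were called lower, 2 genes at 15 µM and 2 at 7.5 µM. Without a floor the same 2 genes were called lower at both doses (log2 ratios of -1.5 and -1.83 for INO1 and -1.04 and -2.59 for INO2, where 3.7% and 4.28% of all genes were called lower), and 1 gene, INO2, was called higher at 15 µM than at 7.5 µM (4.56% of all genes). With spike scaling CHO1, CHO2, OPI3 and ITR1, 4 genes, were called higher at 15 µM and 2, CHO1 and CHO2, at 7.5 µM, where 27.2% and 17.2% of all genes were called higher, and the medians of the readable genes became 0.96 and 0.68. Relative to the median of all genes under that scaling they were 0.21 and 0.08. The median at 7.5 µM was 0.05 over 9 genes and -0.0024 over 10 with the 20th percentile floor. That between the doses turned from -0.02 to 0.14 with that floor or none and was 0.13 with spike scaling. Relative to the median of all genes between the doses under spike scaling it was -0.014. For single genes, 499 values under an alternative stayed within the pooled SD between probe sets and 52 did not, 45 of those with spike scaling. These counts cover the readable genes among the 10 and named genes of the further lists. Many of the 499 repeat the main value, since other floors and averaging leave a bright gene with a single probe set unchanged. PLB1 and GDE1 stayed at least 2-fold higher at 15 µM under each scaling and floor tried, and neither reached 3-fold except with spike scaling. INP51 passed 2-fold at 15 µM too without rescaling (1.08), with quantile normalisation (1.01), with lowess centring (1.01) and with spike scaling (1.44). The 60th percentile floor took CKI1 from -0.95 to -0.35 and PAH1 from 0.57 to 0.12 at 15 µM, since that floor lies above their dimmer signals.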

Other observations

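The genes next to the 10 on their chromosomes, by the order of the R64 gene table, were read as a local reference. Of 20 neighbours 19 had a ratio at 15 µM over control, and 1 was called there, lower, where 1.16% of all genes were called lower and 2.77% higher. None was called at 7.5 µM, where the shares were 0.623% and 2.02%. The called neighbour was APC1, a subunit of the anaphase-promoting complex beside PSD1, with scaled signals of 22.0 at 15 µM, 38.3 at 7.5 µM and 47.5 in the control and a log2 ratio of -1.11 at 15 µM. Beside INO1 lie VPS35 and SNA3, with log2 ratios of -0.20 and 0.07 at 15 µM and -0.18 and -0.10 at 7.5 µM. OPI1 was lower than the control at 15 µM under the median scaling. With spike scaling it was lower only relative to the median of all genes. Both its neighbours, AIM17 and APM2, lay above the control under the median scaling, with log2 ratios of 0.75 and 0.55. At 7.5 µM, where OPI1 was at -0.50, they were at 0.12 and -0.08.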
